A study of Ovis aries with 16 samples.

Results

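The genes described here encode nuclear-encoded subunits of the 5 complexes of oxidative phosphorylation. They were the rows of the deposited table whose symbol follows the subunit naming pattern: NDUFA, NDUFB, NDUFC, NDUFS or NDUFV with a number, SDHA to SDHD, UQCR, COX4 to COX8 and ATP5, together with NDUFAB1, CYC1 and CYCS. A few COX isoform genes were left out by the same rule. This gave 62 of 28524 rows: 36 of complex I (7 core and 29 accessory subunits), 4 of complex II, 1 of complex III (UQCRH), 3 of complex IV (COX5A, NDUFA4 and NDUFA4L2) and 18 of complex V. Complexes III and IV were thus described by few genes, and cytochrome c by 0.

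Oxidative phosphorylation couples electron transfer in the inner mitochondrial membrane to the synthesis of ATP. Complexes I and II pass electrons from NADH and succinate to ubiquinone, complex III hands them to cytochrome c and complex IV to oxygen, while the proton gradient drives the rotary ATP synthase, complex V. Most subunits are encoded in the nucleus and are transcribed at high levels in working muscle. Liver uses the same machinery to power urea synthesis and, above all in fasting, gluconeogenesis.

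RNA was sequenced from 2 tissues of 8 female Suffolk sheep: the left lobe tip of the liver, and the vastus lateralis as skeletal muscle. The BPA animals (4) were born to mothers given bisphenol A, a plasticizer with oestrogen-like activity, at 0.5 mg/kg/day in corn oil by daily subcutaneous injection from day 30 to day 90 of gestation. Mothers of the control animals (4) were injected with corn oil alone. The offspring themselves were not treated. At about 21 months, fasted for 48 hours, they gave tissue 24 hours after the second prostaglandin injection of a synchronized cycle, in the late follicular phase. The 4 groups, each of 4 libraries from separate animals, were BPA liver, control liver, BPA muscle and control muscle, and the comparisons ask how prenatal BPA bears on each tissue. Values for BPA animals are given in the order 910, 918, 977 and 984, and for controls in the order 902, 908, 924 and 928.

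Libraries differed in depth. In units of 1e6 (M), they held 15.15 to 28.54 M recovered reads in muscle. In liver they held 17.92, 4.66, 7.27 and 10.64 M in the BPA animals, against 4.39, 18.55, 17.93 and 19.28 M in the controls. Hepatocyte markers, 12 of 12, were higher in liver than in muscle, and skeletal muscle markers, 8 of 8, lower, so both tissues carried the markers of their labels. The control liver 902 stood apart: relative to the mean of the 8 livers, its hepatocyte marker median lay at -2.51 log2 units and its fibroblast and stellate marker median at 4.23.

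Of the 62 genes, 60 had a mean of at least 10 normalized counts and were tested in every comparison. The other 2 were ATP5MC1 and its second row, ATP5MC1_1, both for subunit c of the ATP synthase rotor ring. ATP5MC1 measured 0 to 2.50 in BPA liver, 0 to 5.69 in control liver, 2.81 to 8.44 in BPA muscle and 0.818 to 4.87 in control muscle. Subunit genes of this pathway have processed pseudogenes and near-identical copies, so a row this low next to its relatives ATP5MC2 and ATP5MC3 is uncertain. One further row, LOC101106662, carries the symbol NDUFB3 in the RefSeq gene table and lay between 0 and 6.14 in all 16 libraries. It was outside the rule.

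In liver, 58 of the 60 tested subunit genes had estimates below 0 in BPA against control, with a median log2 difference of -1.48, against -0.014 over all genes tested. For comparison, 50.7% of all 15689 genes had estimates below 0. None of the 60 passed limma's threshold (Benjamini-Hochberg adjusted p of 0.05), nor did any with edgeR or DESeq2, and over all genes limma called 0%. At an unadjusted p under 0.05 there were 30 of 60 with limma, 6 with edgeR and 18 with DESeq2. Over all 15689 genes, 2838 had such a p with limma, 2844 with edgeR and 3219 with DESeq2, in either direction. With limma, 10.3% of all genes had such a p and a lower estimate. In none of the 60 did the 4 BPA livers lie entirely below or above the 4 controls, against 3.98% of all genes below and 3.63% above. The adjusted p of the 60 ran from 0.256 to 0.730.

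The liver libraries did not separate by group. Relative to each gene's mean over the 8 livers, the median subunit gene lay at 0.92, -1.07, -1.20 and -1.39 log2 units in the BPA livers, against -0.71, 1.27, 1.04 and 1.23 in the controls. Thus the BPA liver 910 was high among the BPA animals and the control 902 low among the controls. In 57 of 60 genes the BPA livers 918, 977 and 984 all lay below the controls 908, 924 and 928. In 57 the control 902 also lay below those 3 controls, and in 57 the BPA liver 910 lay above the other 3 BPA livers. Even so, 910 was below the controls 908, 924 and 928 in 48 of 60 genes, within their range in 12 and above it in 0. These orders were looked at with the values known, and their shares over all genes were not counted. Without 910 and 902, limma called 23.5% of all genes lower.

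**Figure D1:**
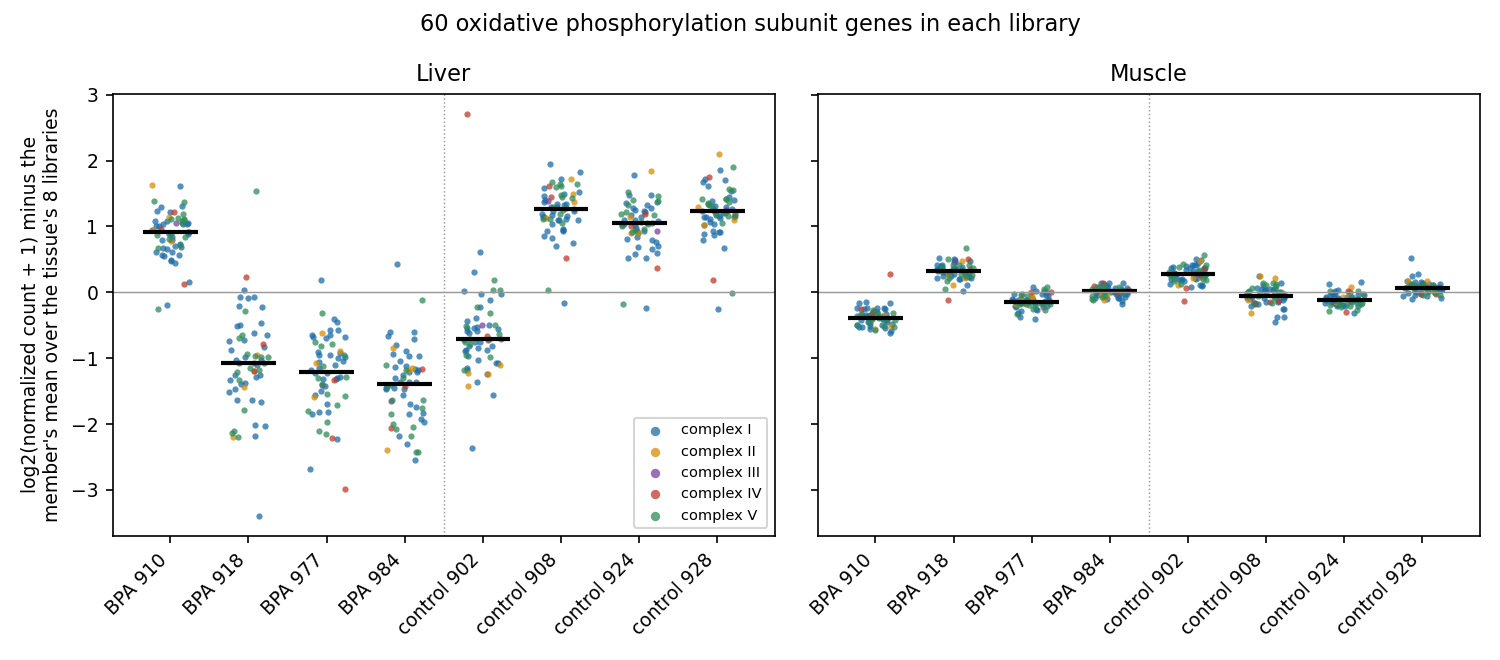
Each point is 1 of the 60 tested subunit genes in 1 library, as log2(normalized count + 1) minus that gene's mean over the 8 libraries of the tissue, coloured by complex; black bars are medians. BPA libraries stand left of controls. In liver the medians run from -1.39 (BPA 984) to 1.27 (control 908), with BPA 910 and control 902 apart from their groups, and in muscle from -0.39 (BPA 910) to 0.32 (BPA 918).

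Complex I had a liver median of -1.36 over 36 genes, 35 of them below 0. Its 7 core subunits, which are conserved from bacteria and include those with the redox centres, had a median of -1.03 and a narrow range of -1.14 to -0.83. The 29 accessory subunits reached from -2.69 to 0.17, with a median of -1.47. The genes with the smallest p were NDUFA5, NDUFA1 and NDUFAB1, all accessory.

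NDUFA5, a subunit of the matrix arm, had 55.8, 20.8, 18.7 and 7.56 normalized counts in BPA livers, against 58.4, 82.6, 54.7 and 86.6 in control livers. The BPA liver 910 lay inside the range of the controls and the other 3 BPA livers below all of them. The log2 difference was -1.71 (SE 0.55, 95% interval -2.93 to -0.50, limma adjusted p = 0.256). NDUFA1, a small subunit of the membrane arm, had 165, 12.5, 7.49 and 10.1 in BPA livers, against 52.8, 208, 186 and 173 in control livers. Here the control 902 was low among controls but above 3 of the BPA livers, and 910 stood just under the other controls. Its log2 difference was -2.69 (SE 0.90, adjusted p = 0.256), the most negative of the 60, from values that rested on 6, 6 and 12 reads in the BPA livers 918, 977 and 984.

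NDUFAB1, the mitochondrial acyl carrier protein, which also serves in fatty acid synthesis, had 159, 45.8, 26.2 and 52.1 in BPA livers, against 82.9, 231, 198 and 205 in control livers. The groups overlapped through 910 and 902 (log2 difference -1.55, SE 0.55, adjusted p = 0.256). NDUFV3, a subunit at the NADH-oxidizing tip, did not share this pattern. It had 234, 252, 303 and 358 in BPA livers, against 330, 237, 225 and 223 in control livers. Its highest livers were BPA 984 and control 902, the libraries where many other subunit genes were low, and its log2 difference was 0.17 (SE 0.27, adjusted p = 0.730).

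Complex II, succinate dehydrogenase, which also works in the citric acid cycle, had a liver median of -1.14 over its 4 genes. SDHC, a membrane anchor, had 1365, 95.8, 146 and 83.2 in BPA livers, against 205, 1450, 1580 and 1896 in control livers. 910 stood beside the high controls and 902 near the low BPA livers (log2 difference -2.28, SE 0.97, adjusted p = 0.268). SDHD, the other anchor, had 673, 112, 145 and 138 in BPA livers, against 113, 862, 675 and 750 in control livers, with 902 as low as the lowest BPA livers.

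SDHA, the flavoprotein that oxidizes succinate, had 4399, 1183, 1228 and 1005 in BPA livers, against 976, 5889, 4233 and 4620 in control livers. SDHB, the iron-sulfur subunit, had 1777, 450, 671 and 576, against 439, 2258, 1927 and 2201. In SDHA and SDHB the control 902 was the lowest of the 8 livers. The log2 differences of SDHD, SDHA and SDHB were -1.25, -1.03 and -0.94, with adjusted p of 0.364, 0.388 and 0.396.

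UQCRH, the hinge protein of complex III that contacts cytochrome c1, had 812, 185, 146 and 123 in BPA livers, against 277, 1021, 741 and 933 in control livers. The control 902 lay above 3 BPA livers and below 910 (log2 difference -1.54, SE 0.63, adjusted p = 0.265). In complex IV, COX5A, a structural subunit on the matrix side, had 614, 137, 125 and 118 in BPA livers, against 200, 859, 631 and 723 in control livers. NDUFA4, once assigned to complex I and now counted as a subunit of complex IV, had 586, 146, 53.6 and 59.6 in BPA livers, against 153, 769, 575 and 852 in control livers.

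Both genes showed the same order as UQCRH, with 910 next to the controls and 902 between. Their log2 differences were -1.49 (SE 0.62) and -1.92 (SE 0.80), each with an adjusted p of 0.266. NDUFA4L2, a paralogue of NDUFA4 induced in low oxygen, had 7.64, 8.33, 0 and 2.52 in BPA livers, against 50.9, 10.3, 9.24 and 8.05 in control livers. In contrast to most other subunit genes, it was highest in the control 902, on 27 reads. Its log2 difference was -1.90 (SE 0.92, adjusted p = 0.296).

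Complex V had a liver median of -1.67 over 16 tested genes, 15 of them below 0. The smallest p belonged to ATP5F1E, the epsilon subunit of the central stalk. It had 807, 70.8, 78.6 and 57.1 in BPA livers, against 318, 963, 891 and 1164 in control livers. The 3 low BPA livers stood below the control 902, itself below the other controls, and 910 was near those. The log2 difference was -2.55 (SE 0.80, 95% interval -4.35 to -0.76, adjusted p = 0.256).

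ATP5PF, coupling factor 6 of the peripheral stalk, had 494, 121, 124 and 63.0 in BPA livers, against 305, 611, 505 and 599 in control livers. ATP5MG, subunit g of the membrane part, had 891, 99.9, 98.6 and 75.6, against 296, 1053, 954 and 1016. Both had an adjusted p of 0.256, with log2 differences of -1.72 and -2.20, and groups that overlapped through 910. ATP5F1A and ATP5F1B, the alpha and beta subunits that form the catalytic sites, had log2 differences of -1.73 and -1.96 (adjusted p = 0.256 and 0.258). ATP5IF1, the inhibitor that blocks ATP hydrolysis, had a log2 difference of -1.15 (adjusted p = 0.322).

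ATP5F1C, the gamma subunit that forms the rotating shaft, was the exception of complex V. It had 1256, 4339, 1203 and 1377 in BPA livers, against 912, 1523, 1315 and 1476 in control livers. The BPA liver 918 stood far above all the other livers, on 2084 reads, and above the highest muscle. The remaining 3 BPA livers lay inside the range of the controls. The log2 difference was 0.44 (SE 0.44, adjusted p = 0.591).

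**Figure D2:**
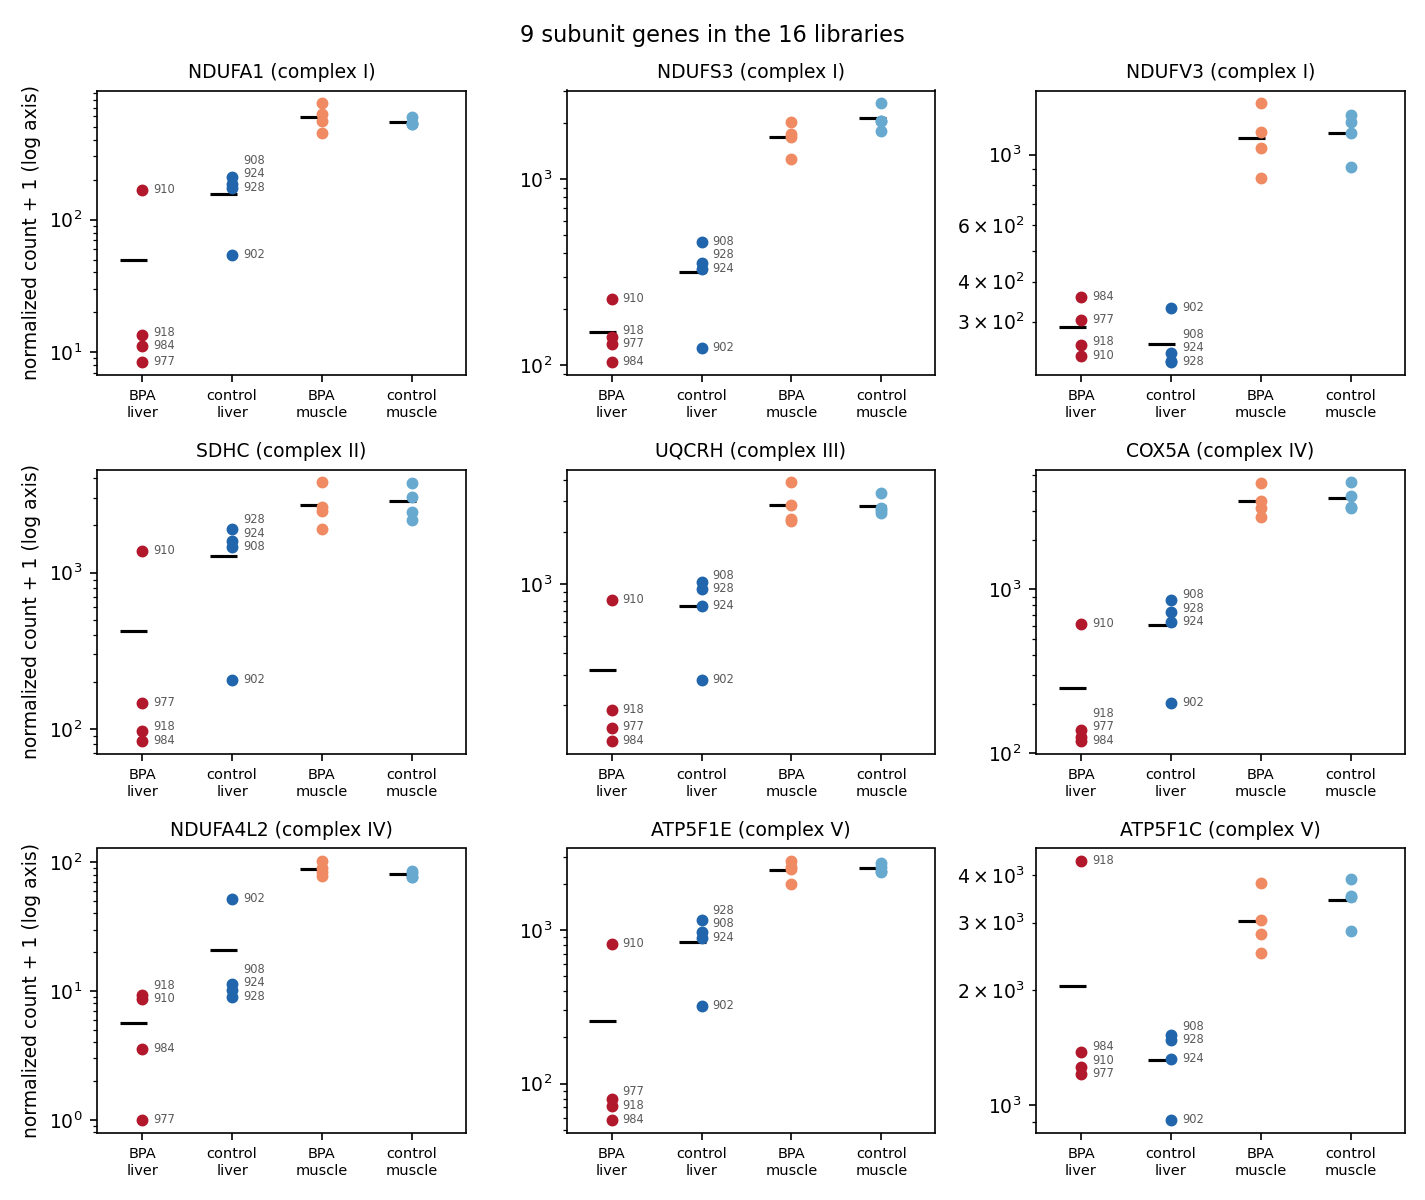
Normalized count plus 1 (log axis) of 9 subunit genes in the 4 groups; each point is 1 library, numbered by animal in liver, and the bar is the group mean of 4. NDUFA1, SDHC, UQCRH, COX5A and ATP5F1E show BPA liver 910 beside the controls 908, 924 and 928 and control liver 902 low, whereas NDUFV3 and NDUFA4L2 were high in control 902 and ATP5F1C in BPA liver 918.

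The balance between complexes was also described, as shares of the counts. Subunit genes together made up 0.334%, 0.164%, 0.135% and 0.122% of normalized counts in BPA livers, against 0.178%, 0.473%, 0.399% and 0.442% in control livers. Within that total, complex IV genes held 2.64%, 1.83%, 1.45% and 1.66% in BPA livers, against 2.74%, 2.72%, 2.39% and 2.77% in control livers. The control 902, low in total, had a complex IV share like that of the other controls. UQCRH held 1.77%, 1.16%, 1.19% and 1.14% in BPA livers, against 1.88%, 1.69%, 1.46% and 1.63% in control livers.

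Complex I held 37.5%, 35.6%, 43.7% and 44.5% of the subunit counts in BPA livers, against 39.9%, 36.6%, 38.2% and 37.7% in control livers. Complex II held 17.9%, 11.5%, 17.8% and 16.6%, against 11.8%, 17.3%, 16.6% and 16.5%. Its lowest shares were in BPA 918 and control 902, the libraries with the fewest reads. Complex V held 40.1%, 49.9%, 35.8% and 36.1%, against 43.7%, 41.6%, 41.4% and 41.3%. With ATP5F1C left out, a choice made after its values were seen, complex V held 38.4%, 31.1%, 28.9% and 26.9% in BPA livers, against 39.9%, 40.1%, 39.8% and 39.8% in control livers, so the groups did not overlap. These shares were not tested.

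Leaving out libraries changed the liver calls. Without the BPA liver 910, limma called 35 of the 60 genes lower, with a median of -2.05, against 9.15% of all genes called lower. These 35 held 19 of 36 complex I genes, 1 of 4 of complex II, UQCRH, 2 of 3 of complex IV and 12 of 16 of complex V. Without both 910 and 902, 57 of 59 tested were lower (median -2.48), against 23.5% of all genes, and the 2 not called were NDUFV3 and ATP5F1C. The pair was left out with its values known. Without 902 alone, limma called 0 (0% of all genes) and the median was -1.94. Here 57 of 59 had an unadjusted p under 0.05, against 4641 of all 15283 genes.

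Depth, other genes and markers were set beside the subunit genes in liver. With a term for depth (above or under 15 M reads) 0 were called and the median was -0.41. Within the libraries above 15 M, BPA 910 against 3 controls, the median difference was -0.26 (58 of 60 lower). Within those under 15 M, BPA 918, 977 and 984 against control 902, it was -0.55 (45 lower and 15 higher). Neither of these 2 differences has a test. The direction of complex II did not hold: its median was 0.027 with the depth term, 3 of its 4 genes lying above 0, and 0.21 within the libraries under 15 M.

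The 67 cytosolic ribosomal protein genes, all with estimates below 0 in liver (median -2.03, 0 called by limma), had library medians of 1.25, -1.55, -1.71 and -2.04 in BPA livers, against -0.01, 1.28, 1.37 and 1.43 in control livers. The 12 hepatocyte markers had medians of 1.35, -0.28, -0.85 and -0.62, against -2.51, 1.05, 1.11 and 1.14. The 8 macrophage and Kupffer cell markers were all below 0 in BPA livers (median -1.91), and none was called. In 4 of them the groups did not overlap, against 3.98% of all genes with BPA entirely below. Their summed counts ranged from 893 to 5619 in BPA livers, against 6108 to 9111 in control livers. The 10 fibroblast and stellate cell markers (median -2.12, 3 without overlap) and the 5 cholangiocyte markers (median -1.24, 2 without overlap) were also all below 0 in BPA livers, and none was called. The summed counts of the fibroblast and stellate list ranged from 2681 to 5686 in BPA livers, against 6060 to 120540 in control livers. Those of the cholangiocyte list ranged from 160 to 285 in BPA livers, against 410.1 to 1257 in control livers. The part of these genes and of depth in the result was not tested. In bulk tissue, fewer cells of a type and less RNA per cell cannot be told apart.

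**Figure D3:**
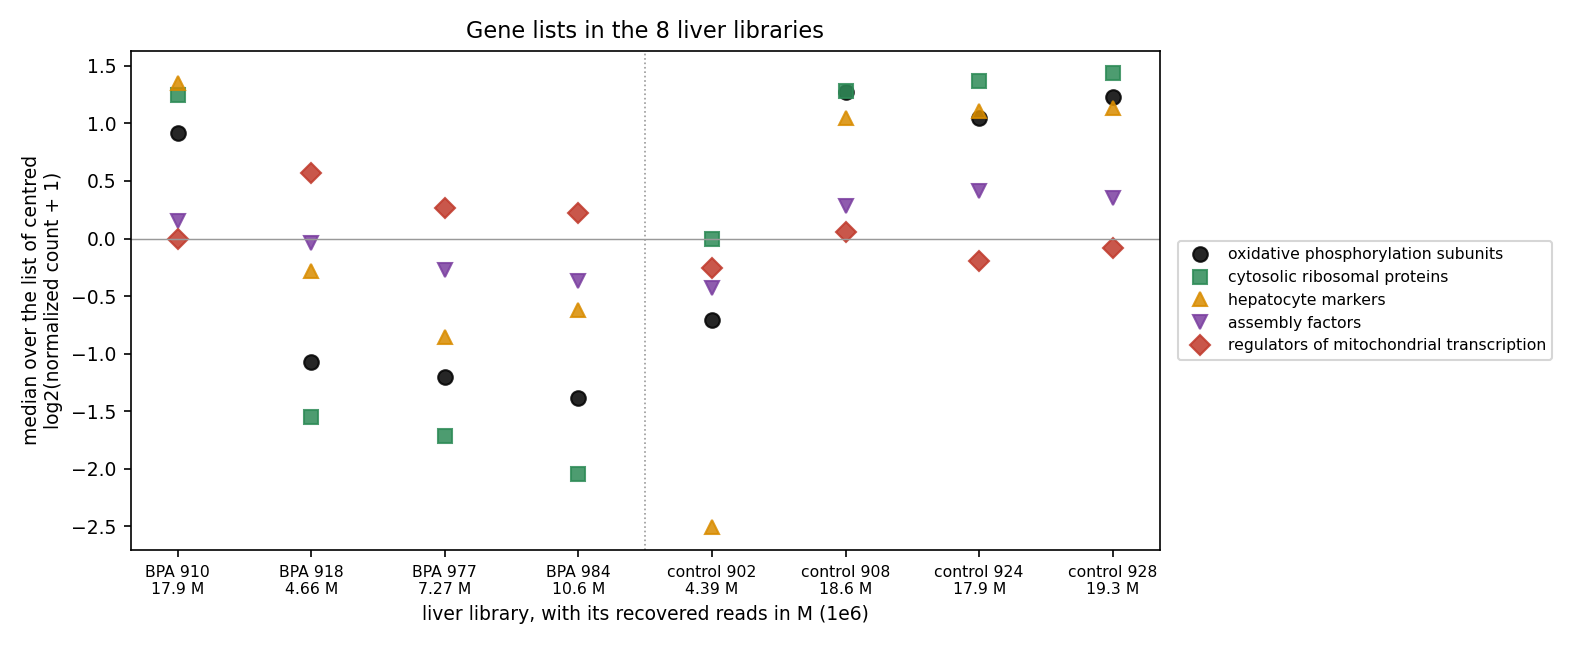
Median over each gene list of log2(normalized count + 1), centred on each gene's mean over the 8 livers, by liver library, with recovered reads in M under the name. The subunit genes and the ribosomal protein genes were both high in BPA 910 and controls 908, 924 and 928, whereas the regulators ranged only from -0.25 (control 902) to 0.57 (BPA 918).

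Genes that build or regulate the chain had medians nearer to 0 in liver, or above it. Of 27 assembly factors tested in liver, 18 had estimates below 0 and 9 above (median -0.15). With limma, 0 were called and 3 had an unadjusted p under 0.05, against 2838 of all 15689 genes with such a p. ACAD9, an acyl-CoA dehydrogenase relative needed to assemble complex I, had 986, 3235, 3083 and 4014 in BPA livers, against 475, 1475, 1091 and 946 in control livers. Its 3 highest livers were the BPA livers in which the subunits were low (log2 difference 1.44, SE 0.51, adjusted p = 0.256). ATPAF1, a chaperone of the ATP synthase head, had a log2 difference of -1.18 (adjusted p = 0.256) and NDUFAF8, a complex I assembly factor, of -1.55 (adjusted p = 0.269).

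Of 16 regulators of mitochondrial gene expression tested in liver, 13 had estimates above 0 (median 0.39) and 0 were called or had an unadjusted p under 0.05 with limma. PPARGC1A, the coactivator that drives mitochondrial biogenesis and fasting gluconeogenesis, had 414, 1666, 1213 and 916 in BPA livers, against 268, 590, 553 and 638 in control livers. Within each group its lowest liver was 910 among the BPA animals and 902 among the controls. Its log2 difference was 0.94 (SE 0.46, adjusted p = 0.299). NRF1, a transcription factor of subunit genes, had a log2 difference of 0.64 (adjusted p = 0.304).

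In muscle the differences were far smaller. Estimates were below 0 for 53 of 60 subunit genes, against 50.5% of all 14706 genes, and the median log2 difference was -0.083, against -0.0022 over all genes. None passed with limma, edgeR or DESeq2, against 0.129% of all genes called by limma. With each of the 3 tools, 1 of the 60 had an unadjusted p under 0.05. Over all 14706 genes, 1142 had such a p with limma, 1180 with edgeR and 1106 with DESeq2. With limma, 4.01% of all genes had such a p and a lower estimate. In none of the 60 were the groups without overlap, against 2.48% of all genes below and 2.05% above. All 60 had 95% intervals within 1 log2 unit of 0, from -0.65 to 0.52 at the widest, and adjusted p ran from 0.591 to 0.995.

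The direction depended on BPA 910 and control 902. The library medians were -0.39, 0.32, -0.14 and 0.01 in BPA muscles, against 0.27, -0.05, -0.12 and 0.07 in control muscles. The lowest and the highest of the 8 muscles were thus both from BPA animals. BPA 910 was the lowest of the 8 in 51 of 60 genes, BPA 918 the highest in 38, and control 902 the highest of the controls in 54. Without control 902 the median was -0.012, with 33 genes below 0 and 27 above. Without BPA 910 the median was 0.024, on the other side of 0, and without 910 and control 902 it was 0.087.

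The muscle of BPA 910 also had the highest adipocyte marker median, 1.31, against -1.36 to 0.25 in the other BPA muscles and -0.57 to 0.13 in control muscles. The summed counts of the 5 adipocyte markers ranged from 529 to 3492 in BPA muscles, against 904 to 1586 in control muscles. Its fast fibre marker median was -0.34, the lowest of the 8. Whether these bear on the subunit genes was not tested.

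NDUFS3, a core subunit of complex I, was the only subunit gene with an unadjusted p under 0.05 in limma. It had 1290, 2028, 1683 and 1758 in BPA muscles, against 2557, 2060, 1816 and 2067 in control muscles. Only BPA 918 reached above the lowest control, and the log2 difference was -0.34 (SE 0.14, unadjusted p = 0.035, adjusted p = 0.591). NDUFB7 and NDUFA10, accessory subunits of the membrane arm, followed with -0.22 and -0.23 (adjusted p = 0.765 and 0.785).

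The 4 genes of complex II lay between -0.23 (SDHD) and -0.09 (SDHC), with a median of -0.17. SDHD had 1171, 1775, 1357 and 1418 in BPA muscles, against 1796, 1811, 1530 and 1530 in control muscles. BPA 918 was within the range of the controls and the other 3 below it (adjusted p = 0.706). UQCRH had 2298, 3855, 2386 and 2872 in BPA muscles, against 3347, 2658, 2551 and 2737 in control muscles, with the controls inside the range of the BPA animals (log2 difference -0.0084, adjusted p = 0.992).

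All 16 tested genes of complex V had estimates below 0, from -0.25 (ATP5PF) to -0.020, with a median of -0.094. ATP5PF had 1314, 2163, 1366 and 1612 in BPA muscles, against 2310, 1902, 1698 and 1674 in control muscles, where only BPA 918 entered the range of the controls (adjusted p = 0.759). ATP5F1C had a log2 difference of -0.19 and ATP5MD, a small membrane subunit that helps ATP synthase dimers form, of -0.22 (adjusted p = 0.782 for both).

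In complex IV, 2 of the 3 genes had estimates above 0, and none was called. NDUFA4 had 2281, 3847, 2722 and 2991 in BPA muscles, against 2845, 2442, 2207 and 2664 in control muscles. In 3 of the BPA muscles it lay above the control median, and the lowest, 910, lay inside the range of the controls (log2 difference 0.20, SE 0.14, adjusted p = 0.783). NDUFA4L2 had 100, 76.7, 82.8 and 89.2, against 75.5, 75.8, 84.5 and 81.8, with 910 highest. Its log2 difference was 0.13 (adjusted p = 0.854), and that of COX5A -0.07 (adjusted p = 0.933).

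As a share of all subunit counts, the 3 complex IV genes held 4.06%, 3.90%, 3.82% and 3.79% in BPA muscles, against 3.56%, 3.44%, 3.50% and 3.56% in control muscles. The 4 BPA muscles lay above all 4 controls, with means of 3.89% ± 0.12 and 3.51% ± 0.059 (SD, n = 4 each). In liver the same share pointed the other way, 1.90% ± 0.52 in BPA animals and 2.65% ± 0.18 in controls, with overlap. The share was looked at in 5 complexes and 2 tissues and was not tested.

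**Figure D4:**
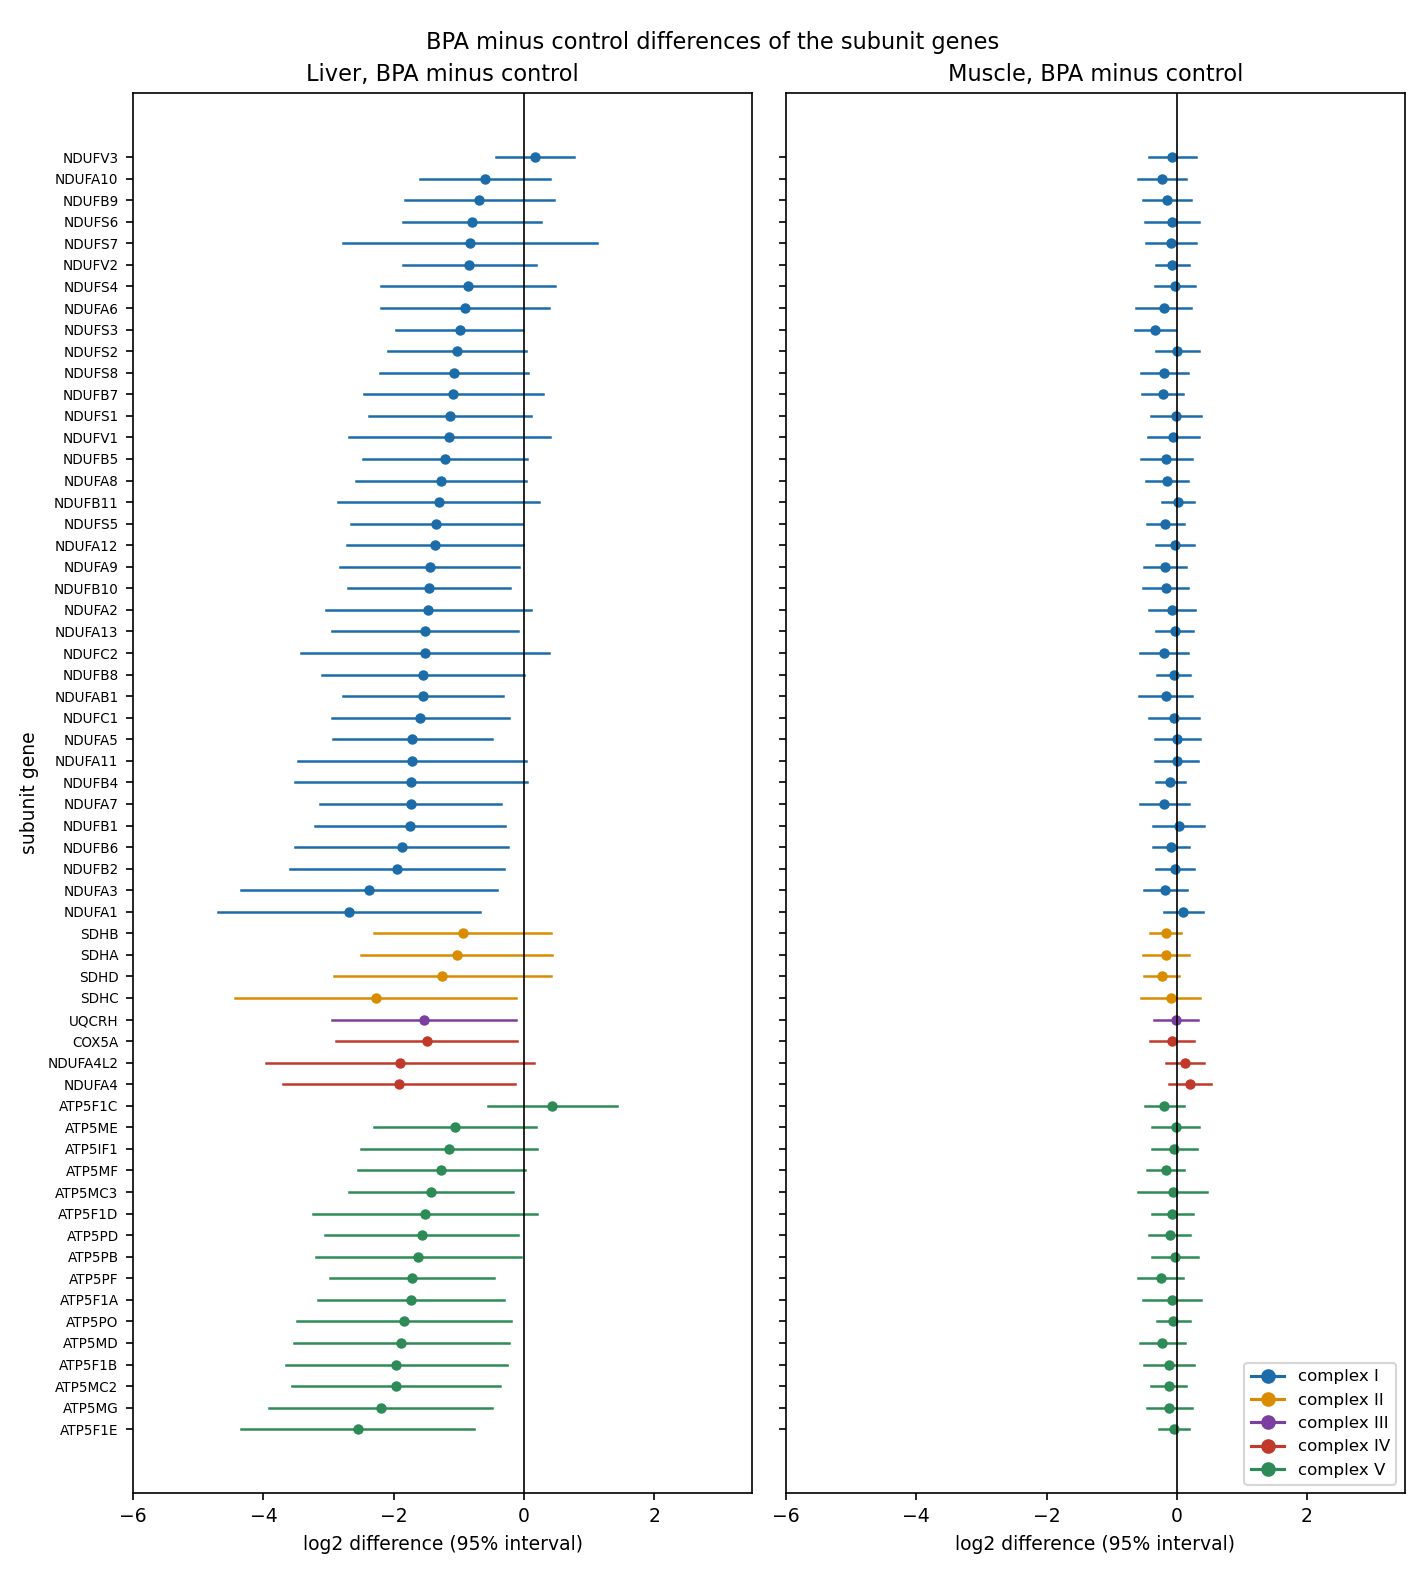
BPA minus control log2 difference of each of the 60 tested subunit genes, liver on the left and muscle on the right on the same axis, with 95% intervals from limma, ordered by complex and by the liver estimate. In liver 58 lie below 0 with wide intervals, and in muscle all intervals lie within 1 log2 unit of 0.

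The difference between the BPA effects of the 2 tissues was tested in 1 fit over all 16 libraries. For 58 of 60 genes it was below 0, against 52.3% of 13677 genes, with a median of -1.37, and 0 were called by limma, edgeR or DESeq2 (over all genes limma called 0%). At an unadjusted p under 0.05 there were 19 of 60 with limma and 3 each with edgeR and DESeq2. Over all 13677 genes, 2661 had such a p with limma, 2932 with edgeR and 2978 with DESeq2. Among the 60, the smallest limma p were those of NDUFA5 (-1.72, SE 0.57, adjusted p = 0.202), ATP5F1E (-2.52, adjusted p = 0.205) and NDUFA1 (-2.79, adjusted p = 0.205). ATP5F1C (0.63, adjusted p = 0.448) and NDUFV3 (0.24, adjusted p = 0.656) were the 2 above 0. Without animal 910, 37 were called lower, against 12.6% of all genes.

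Between tissues every tested subunit gene was lower in liver than in muscle. All 60 passed limma's threshold, against 35.3% of 15995 genes called lower in liver and 48.5% with estimates below 0. The median log2 difference was -2.86, and adjusted p ran from 3.11e-09 to 0.000752. In 58 genes the 8 livers lay entirely below the 8 muscles, NDUFC1 and ATP5F1C being the exceptions. The share of all genes in this order was not counted, and 45 of the 67 cytosolic ribosomal protein genes showed it too. Subunit genes took 0.122% to 0.473% of normalized counts in liver libraries and 0.678% to 1.06% in muscle libraries.

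How far liver lay below muscle was described for each complex, with no test between complexes. The median log2 difference was -2.94 for complex I, -2.62 for II, -2.84 for III, -3.42 for IV and -2.72 for V. In complex I the largest difference was that of NDUFA3, a small membrane-arm subunit, with a lowest, median and highest value of 10.4, 184 and 429 in liver, against 1265, 1882 and 2274 in muscle. The log2 difference was -3.93 (SE 0.49), or 0.0655 times the muscle level. NDUFA12, of the matrix arm, and NDUFB1, of the membrane arm, followed with -3.75 (SE 0.33) and -3.49 (SE 0.34).

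The smallest difference in complex I was that of NDUFC1, a small membrane-arm subunit, with 24.4, 114 and 229 in liver, against 202, 251 and 361 in muscle. Its highest livers reached into the lower muscles (log2 difference -1.53, SE 0.34, adjusted p = 0.000752). In complex IV the 3 genes lay close together, at -3.48 for COX5A, -3.42 for NDUFA4 and -3.41 for NDUFA4L2. COX5A had 118, 407 and 859 in liver, against 2790, 3343 and 4517 in muscle, a wide gap between the highest liver and the lowest muscle.

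In complex V the largest differences were those of ATP5MC2, a gene for the rotor ring subunit c (-3.57), ATP5MD (-3.14) and ATP5F1B (-3.12). ATP5F1C had the smallest of all 60, -1.10 (SE 0.24, adjusted p = 0.000596), with 912, 1346 and 4339 in liver, against 2500, 3275 and 3900 in muscle. Its highest liver, BPA 918, lay above every muscle, and the other 7 livers lay below all muscles. The complex II genes were even, from -2.68 (SDHA) to -2.32 (SDHD), and UQCRH had -2.84 (SE 0.35).

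Both sets of animals showed the tissue difference. In BPA animals all 60 genes were called lower in liver (median -3.52), against 32.9% of all genes. In control animals 57 were (median -2.20), against 27.3%, and the 3 not called were SDHC (-1.52, adjusted p = 0.105), NDUFB2 (-1.05, adjusted p = 0.131) and NDUFC1 (-0.75, adjusted p = 0.194). NDUFV3, whose liver values lay between 223 and 358, had -1.96 in BPA animals and -2.20 in control animals. ATP5F1C had -0.79 (adjusted p = 0.049) and -1.42 (adjusted p = 0.0019).

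**Figure D5:**
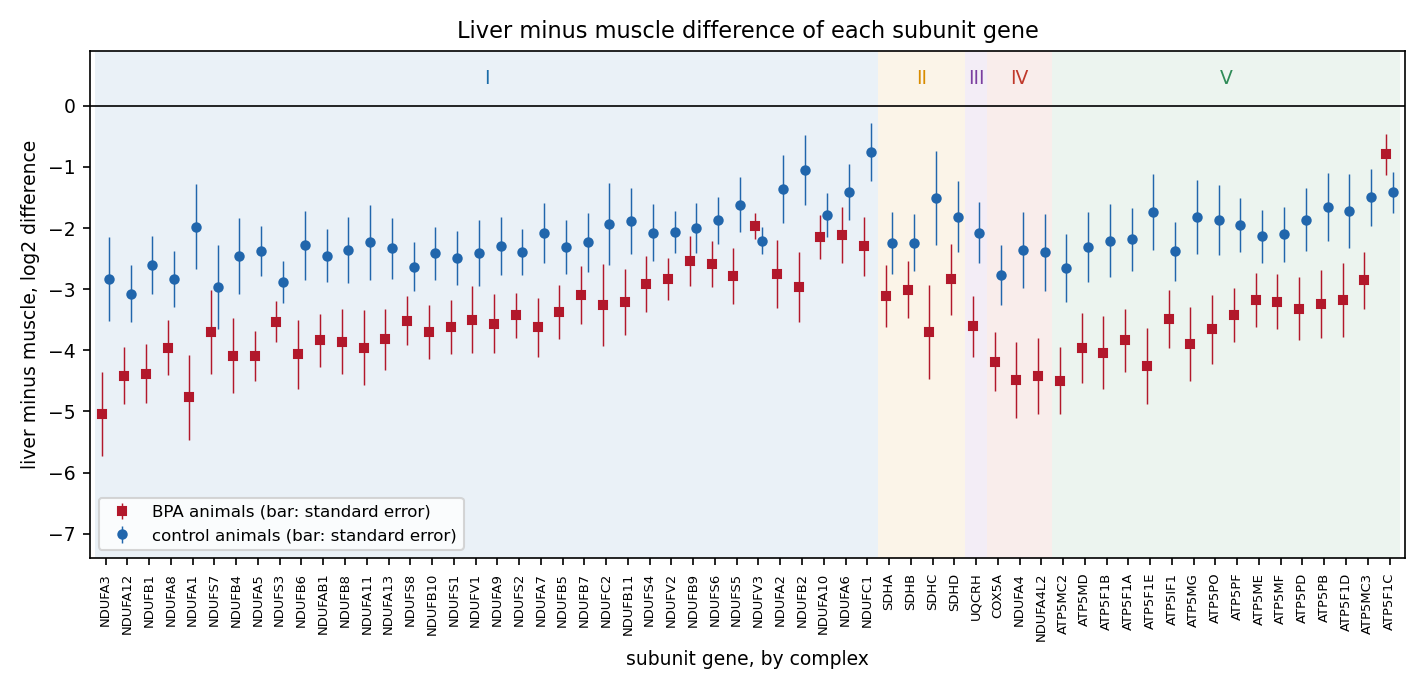
Liver minus muscle log2 difference of each of the 60 tested subunit genes in BPA animals (squares) and control animals (circles), with standard errors, grouped by complex and ordered by the difference over all animals. Every point lies below 0. Complex IV, with 3 genes, had the lowest medians in BPA animals (-4.42) and in controls (-2.39, next to -2.29 for complex I). Both complex IV medians are the estimate of NDUFA4L2. That gene had 10, 4, 0 and 3 reads in BPA livers 910, 918, 977 and 984.

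Assembly factors and regulators had medians nearer to 0 between tissues. Of 27 assembly factors, 17 were called lower in liver and 2 higher (ACAD9, and FOXRED1, an oxidoreductase needed for complex I, at 2.08), with a median of -0.78. Of 17 regulators, 6 were called lower and 3 higher, with a median of -0.07. Of the 67 ribosomal protein genes, 64 were called lower in liver, with a median of -1.79. Over all 15995 genes tested, 5640 (35.3%) were called lower in liver and 5780 higher.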

How the data were processed

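Per the labels' protocols, a low-input kit was used after ribosome depletion. Trimmomatic, FastQC and DESeq2 1.24.0 were used, per the submitters' processing notes. The sources used here do not give the aligner, counter, strandedness, annotation or build, so overlapping antisense genes and near-identical copies cannot be told apart. The table that the authors deposited holds a normalized signal, that is, read counts over a size factor of each library, set over all 16 libraries. Its columns were whole multiples of 1 step, which gave whole reads (within 0.1 read) for at least 99.9965% of values. Depth ran from 4.39 to 28.54 M reads, and shallow livers give low genes few reads.

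In each tissue separately, limma 3.58.1 (R 4.3.3) was run on log2(value + 1) of the genes whose mean reached 10, with an intensity trend and Benjamini-Hochberg adjustment over all genes tested. This scale understates changes of low genes. A fit of 4 groups tested liver minus muscle and the difference between BPA effects. The recovered reads were tested with edgeR 4.0.16 and DESeq2 1.42.0. The threshold was an adjusted p of 0.05. The pipeline was tested on simulated data. Alternatives were other pseudocounts, filters, scalings, moderation and weights, a depth term, and leaving out libraries.

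Members and gene lists were chosen with earlier results of these data known. In BPA comparisons the 3 smallest p of each complex, all complex II genes and a panel were named, between tissues the 3 largest and the smallest difference of each complex, and for the difference between BPA effects the 3 smallest p per direction. NDUFB2 was named outside this rule, after its values were seen. Marker and other lists were described by counts, medians and smallest p.

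The same sheep number marks the same animal in both tissues, per the labels. Deviations from group means correlated between an animal's tissues, across genes, by -0.101 to 0.118. Each animal gave 1 library per tissue, so p-values measure the spread between animals.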

Additional observations from a re-analysis of the deposited data

Results flagged for a closer look

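In 35 of 136 groups of 4 libraries looked at, over the named subunit genes and the medians of complexes, 1 library lay far from the other 3, by a test that chance passes in about 1 of 20 groups. The genes are not independent, and 20 of the 35 came from BPA liver 910 and 11 from control liver 902.

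BPA liver 910 was far above the other 3 BPA livers in the median of all subunit genes (0.917 log2 units from the mean of the 8 livers), of complex I (0.859) and of complex II (1.04). In normalized counts the same held in complex I for NDUFA1 (165), NDUFA3 (277), NDUFA10 (778) and NDUFC1 (162). It held in complexes II to IV for SDHA (4399), SDHB (1777), SDHC (1365), SDHD (673), UQCRH (812) and COX5A (614). It held in complex V for ATP5F1A (2657), ATP5F1B (4708), ATP5F1E (807), ATP5PF (494), ATP5MG (891), ATP5MC2 (556) and ATP5IF1 (659).

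Control liver 902 was far below the other 3 controls in the median of all subunit genes (-0.709), of complex I (-0.735), of complex II (-1.23) and of complex V (-0.665). It was also far below them in NDUFB7 (153), NDUFA10 (286), NDUFB1 (20.7), ATP5MG (296) and ATP5MC2 (194). In contrast it was far above them in NDUFA4L2 (50.9, with the next control at 10.3) and NDUFV3 (330, with the next control at 237).

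BPA liver 918 was far above the other BPA livers in ATP5F1C (4339, with the next at 1377). In muscle, control 902 was far above the other controls in NDUFA1 (593) and NDUFB7 (2596), and BPA 910 far below the other BPA muscles in ATP5MC2 (2178).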

How the results depend on the processing

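The liver and the between-tissue BPA results depend on which libraries carry weight. Of the 60 subunit genes, limma called 0 in liver, but 59 with sample quality weights (58 lower and NDUFV3 higher), 20 with all 16 libraries in 1 fit, 57 without control 902 and BPA 910, and 0 to 35 with 1 library left out. Over all 15689 genes the liver count was 0 with limma, 196 with DESeq2, 9588 with weights and 2299 with all 16 libraries in 1 fit. It was 6594 of 15296 without control 902 and BPA 910, and 0 to 2595 with 1 library left out. The liver median moved to -0.41 with a depth term and to -0.26 within libraries above 15 M reads. This split was added after seeing the data, and the cause was not tested. For the difference between BPA effects, 0 subunit genes were called, but 58 with weights (median -2.31), 57 without animals 902 and 910 (median -2.48) and 0 to 37 with 1 animal left out. Over all 13677 genes that count was 0 with limma and 8245 with weights. It was 5739 of 13436 without animals 902 and 910, and 0 to 3020 with 1 animal left out. With 1 library or animal left out, medians ranged from -2.05 to -1.23 in liver, from -0.215 to 0.0243 in muscle and from -2.05 to -1.11 for the difference between effects. The muscle median changed sign without BPA 910 (0.0243) and without 910 and 902 (0.0869). Over all genes, muscle calls were 19 with limma, 131 with DESeq2, 377 with weights and 0 with all libraries in 1 fit. Between tissues 60 genes were called under each alternative over all animals except 2: DESeq2 gave no adjusted p for 6 and called 54, and a mean of at least 50 left 59 to test, all called. In that contrast the median over all genes was 0.059 with limma and 0.20 with edgeR. With the animal as a replicate block, 60 genes were called between tissues and 0 for the difference between effects, so the pairing changed no call of a subunit gene. Over all genes, limma's calls between tissues fell from 11420 to 11091. Subunit genes with an unadjusted limma p under 0.05 for the difference between effects fell from 19 to 12. All genes with such a p fell from 2661 to 2296. Shallow livers limit what low genes such as NDUFA4L2 can show.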
